A study of Mus musculus with 6 samples.

Results

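Dppa2, Dppa3, Dppa4, Dppa5a, Gdf3 and Apobec1 are 6 of the 22602 genes for which mRNA levels were measured in mouse embryonic stem (ES) cells, and they were taken by gene symbol. The first 4 are the developmental pluripotency associated (Dppa) genes of the deposited table with a measurable level, and Gdf3 and Apobec1 are the neighbours of Dppa3 on chromosome 6. Clones A6, B8 and C4 gave 3 of the libraries. Each clone carries a Flag-tagged mouse Sim2 transgene at the ROSA26 locus behind a modified human CMV promoter, which a tetracycline-controlled transactivator switches on once tetracycline is removed. The other 3 libraries, EB3-0, EB3-1 and EB3-2, are cultures of EB3 (EBRTcH3), the parental line of the clones. All 6 cultures grew on gelatin in serum and leukemia inhibitory factor and were kept for 26 h without tetracycline, so no library holds a clone with the transgene switched off. Each clone gave 1 library, and the EB3 cultures are of 1 line, so the spread in one group is between clones and in the other between cultures. The comparison asks whether the mRNA of these genes differs once SIM2, a bHLH-PAS transcription factor, is made.

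The Dppa genes share a name because they are expressed in pluripotent cells, not because all of them are related in sequence. DPPA2 and DPPA4 are SAP-domain proteins that bind chromatin as a pair and keep the promoters of a set of germline and early embryonic genes open. DPPA3, also called Stella or PGC7, protects the maternal genome from loss of DNA methylation in the zygote, binds UHRF1, and is made in only some cells of an ES culture in serum. DPPA5A (ESG1) is a small KH-domain RNA-binding protein. GDF3 is a TGF-beta family ligand that can signal like NODAL and can also block BMPs. APOBEC1 is the cytidine deaminase that edits the mRNA of apolipoprotein B.

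The depth was 25095861 to 28269340 reads per library, as recovered from the deposited values. Sim2 had 168 to 212 RPKM (read counts scaled to cDNA length and to the size of the library) in the clones and 0.0917 to 0.130 RPKM in EB3, as the labels say. The 8 markers of undifferentiated ES cells were all among the tested genes, with summed levels of 3629 to 3804 RPKM in the clones and 3767 to 4342 RPKM in EB3. Pou5f1 was the largest part, at 1502 to 1594 RPKM in the clones and 1590 to 1961 RPKM in EB3. 5 of the 8 had a lower and 3 a higher mean in the clones. Zfp42 was lower and Esrrb higher without overlap (adjusted p = 0.145 and 0.346 in limma), as for 26.1% of all tested genes in either direction. B8 and EB3-0 stood apart: B8 was the lowest of the 6 libraries for 26.5% of tested genes and EB3-0 for 28.2%, against 10.1% to 12.6% for each of the other 4. The median difference between EB3-1 and EB3-2 was 0.06 on the log2(RPKM + 0.5) scale, against 0.25 for EB3-0 with either, and EB3-1 and EB3-2 were the closest EB3 pair for 6 of the 6 genes described here. These are bulk libraries, so fewer cells with a transcript and less of it per cell cannot be told apart. The EB3 libraries are described as independent cultures of that line, so p-values set the spread between clones beside that between cultures.

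Of the 6 genes, 5 had a lower mean on the log2 scale and 1 a higher mean in the clones, beside 50.9% of all tested genes with a lower one, and none passed the test. In limma over 11595 tested genes, 0 of 6 had an adjusted p under 0.05, against 0.699% of all tested genes (0.354% lower in the clones), and 1 (Dppa4) had an unadjusted p under 0.05, against 17.8% of all tested genes. With limma-voom in place of limma-trend the count was also 0 of 6. The median log2 fold change was -0.22, beside -0.01 over all tested genes. In 1 gene of 6, Dppa4, the levels of the groups did not overlap, against 26.1% of all tested genes. 4 of the 6 genes (Dppa2, Dppa3, Dppa4 and Apobec1) had their lowest level in B8, beside the 26.5% of all tested genes. EB3-0 had the highest level of the EB3 cultures in 6 of 6, beside 44.9% of all tested genes. With each library's trend over cDNA length removed this did not hold for Dppa4 and Gdf3. On the log2 scale Dppa4 was then at 6.27 in EB3-0 and 6.34 in EB3-1. Gdf3 was at 6.64 in EB3-0, the lowest EB3 culture, against 6.65 and 6.68 in EB3-1 and EB3-2.

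**Figure D1:**
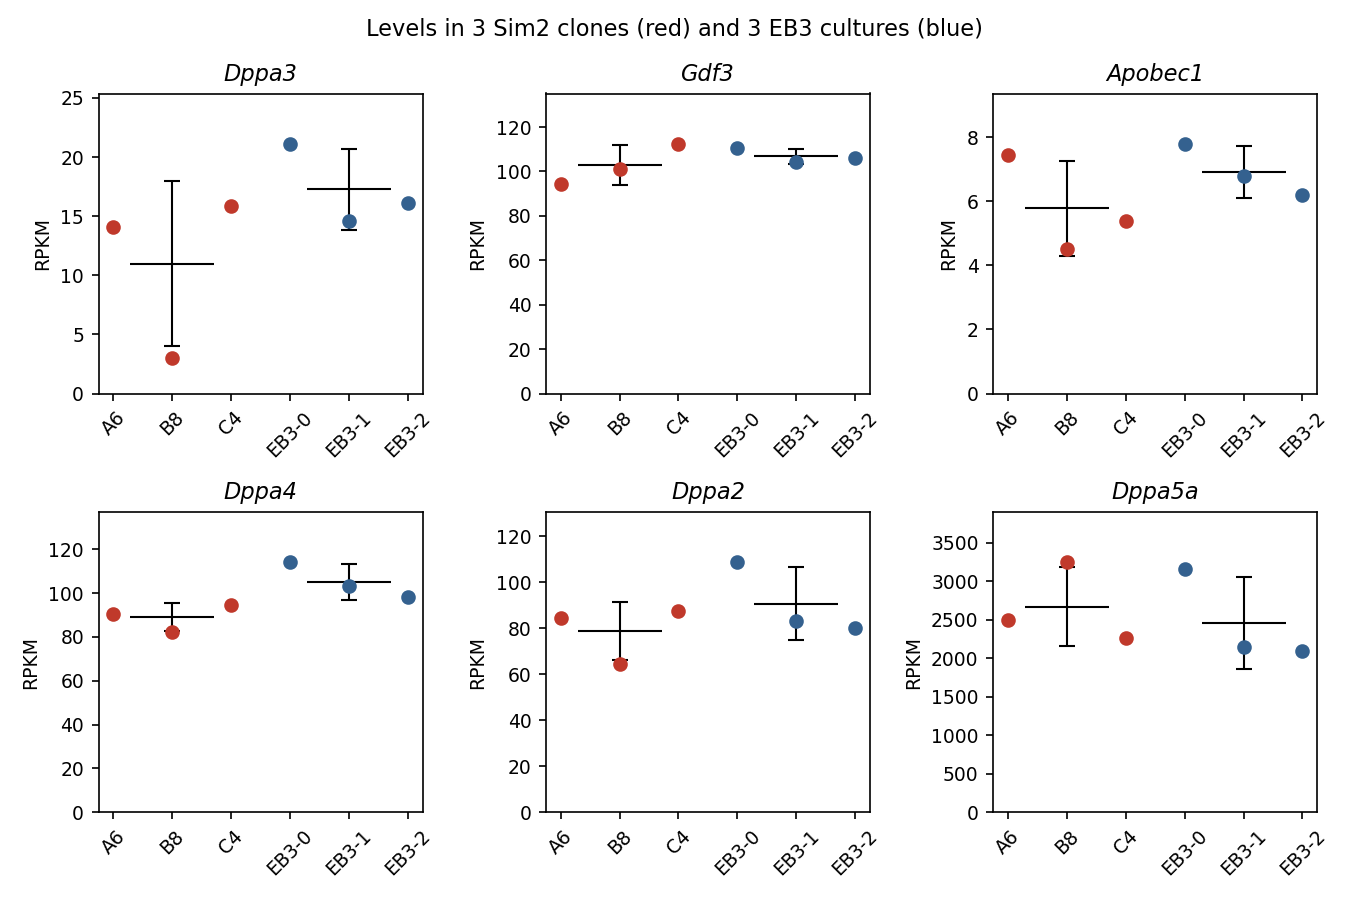
Levels of the 6 genes in RPKM (y axes, each from 0) in the 3 Sim2 clones (red points) and the 3 EB3 cultures (blue points), 1 point per library, with the group mean as a horizontal line and the SD as a vertical bar (n = 3). Dppa3 in B8 lies at 2.99 RPKM and the other 5 libraries at 14.1 RPKM or more. Dppa4 is the gene whose red and blue points do not overlap.

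Per kilobase, the order of the mean levels was Dppa5a, Gdf3, Dppa4, Dppa2, Dppa3 and Apobec1. Dppa5a was 19.8 to 32.1 times Gdf3 in RPKM and ranked 4 in B8 and 6 in the other 5 libraries among all 22602 genes. Gdf3 exceeded Dppa4 in 5 of 6 libraries, with a mean log2 ratio of RPKM of 0.12 ± 0.14 (SD, n = 6). These neighbours in the order thus did not differ beyond their spread. Dppa4 exceeded Dppa2 in 6 of 6 libraries, by 1.05 to 1.28 times in RPKM. Dppa2 exceeded Dppa3 by 4.97 to 21.5 times. Dppa3 exceeded Apobec1 in 5 of 6 libraries and was under it in B8, with RPKM ratios from 0.661 to 2.94.

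Dppa3, Gdf3 and Apobec1 lie together on chromosome 6. In the files' mm9 build Dppa3 spans chr6:122576442-122580289 on the plus strand, Gdf3 chr6:122555421-122560089 on the minus strand and Apobec1 chr6:122527810-122552462 on the minus strand. The start sites of Dppa3 and Gdf3 are 16.4 kb apart and point away from each other, and the start site of Apobec1 is 24.0 kb from that of Dppa3 and 7.63 kb from that of Gdf3.

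Dppa3 had 14.1, 2.99 and 15.8 RPKM in clones A6, B8 and C4, and 21.1, 14.6 and 16.1 RPKM in EB3-0, EB3-1 and EB3-2. One clone, B8, was far below every other library, and the levels of A6 and C4 lay within or just under the range of EB3. The low value rests on 63 reads in B8, against 290 in A6 and 472 in EB3-0. The exact Poisson 95% interval of B8 was 2.30 to 3.82 RPKM and that of A6, the next lowest, 12.5 to 15.8 RPKM. These intervals cover counting error only, and both mates of a pair appear to have been counted. B8 was 5.47-fold below the mean of the other 5 libraries and 4.73-fold below A6. On the log2(RPKM + 0.5) scale the gap between B8 and the lowest other library was 2.07, which ranked 2 among the 11595 tested genes. Gaps of at least 2 were seen for B8 in 0.0172% of tested genes, namely Dppa3 and Scarna13, and gaps of at least 1 in 0.302%.

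**Figure D2:**
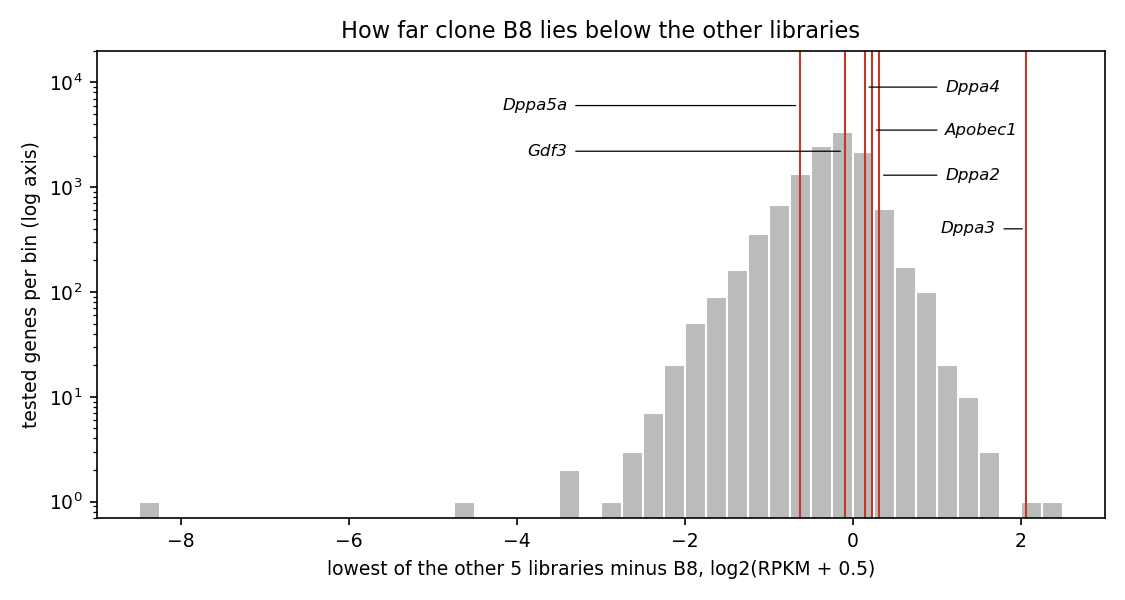
Distribution over 11595 tested genes of the gap between clone B8 and the lowest of the other 5 libraries (x axis, difference on the log2(RPKM + 0.5) scale, positive where B8 is lowest; y axis, genes per bin, log scale), with red lines at the 6 genes. Dppa3 sits at 2.07, in the right tail, and the other 5 genes lie between -0.63 and 0.32.

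Between the groups, the mean of Dppa3 was 10.98 ± 6.97 RPKM (SD, n = 3) in the clones and 17.3 ± 3.43 RPKM (SD, n = 3) in EB3. The log2 fold change was -0.90 ± 0.52 (SE), with a 95% interval of -2.09 to 0.29 and an adjusted p of 0.414 in limma. The 2-sided exact permutation test gave p = 0.2, where 0.1 is the smallest p that 3 libraries against 3 allow. Without B8 the fold change was -0.19 ± 0.17 (adjusted p = 0.694), and without both B8 and EB3-0 it was -0.03 (adjusted p = 0.806). The size of the group difference thus rested on B8. B8 also had the highest summed level of 8 primitive endoderm markers, 41.2 RPKM against 17.7 and 21.3 in the other clones and 11.2 to 14.9 in EB3. 0 of the 8 markers had a lower mean in the clones when the minimum level was dropped, with a median of 0.35 and 0 called. That fit called 23 of all 22602 genes. Most of the summed level was Lama1. Lama1 and Col4a1, which encode basement membrane proteins and were the only 2 of the 8 tested, were highest in B8, at 32.9 and 5.05 RPKM. Gata4 and Foxa2 were highest in C4, at 0.980 and 0.399 RPKM, and Dab2 in A6, at 1.01 RPKM. Sox17, a defining factor of primitive endoderm, had 0.280 to 0.298 RPKM in the clones and 0.0239 to 0.117 RPKM in EB3. Its groups did not overlap, beside 26.1% of all tested genes. Gata6 had 0.399 to 0.644 RPKM in the clones and 0.156 to 0.562 RPKM in EB3. Both were under 1 RPKM in every library and were not tested. The part of these markers in the Dppa3 value was not tested.

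Gdf3, the nearest neighbour of Dppa3, had 94.6, 101 and 113 RPKM in A6, B8 and C4, and 111, 104 and 106 RPKM in EB3-0, EB3-1 and EB3-2. The clones spanned the range of EB3, and B8 was the middle clone. The log2 fold change was -0.06 ± 0.09 (SE) with an adjusted p of 0.783, and the 95% interval of the linear fold, 0.829 to 1.11, did not exclude an equal level. The exact permutation test was at p = 0.5 (2-sided). B8 stood 0.10 above the lowest other library on the log2(RPKM + 0.5) scale.

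Apobec1 had 7.42, 4.52 and 5.39 RPKM in A6, B8 and C4, and 7.80, 6.77 and 6.19 RPKM in the EB3 cultures in the same order as before. B8 and C4 were under every EB3 culture, and A6 was above 2 of them. The B8 value rests on 264 reads, and the other libraries had 345 to 482. The log2 fold change was -0.26 ± 0.19 (SE), with a 95% interval of -0.69 to 0.17, an adjusted p of 0.511 and an exact permutation p of 0.3 (2-sided). Without B8 the fold change was -0.11. B8 was 0.23 below the next library on the log2(RPKM + 0.5) scale, a gap that ranked 1009 among tested genes, so the low value of Dppa3 in B8 was not met by a like value in either chromosomal neighbour.

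Apobec1 is the one gene of the 6 with an entry in the RefSeq promoter table used here. Its promoter window is shown because it is the only one of the 6 in that table, at chr6:122602395-122602694 of the GRCm38.p6 build, minus strand, from 250 bases before the start to 50 after it. It is printed 5′ to 3′ with CpG dinucleotides in capitals.
Apobec1 promoter: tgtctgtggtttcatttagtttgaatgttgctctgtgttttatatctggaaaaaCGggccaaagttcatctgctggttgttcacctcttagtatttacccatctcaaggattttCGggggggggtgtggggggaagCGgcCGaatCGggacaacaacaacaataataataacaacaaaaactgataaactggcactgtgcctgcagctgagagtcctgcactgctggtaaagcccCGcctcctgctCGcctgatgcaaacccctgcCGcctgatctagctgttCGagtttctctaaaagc
The window held 9 CpG, beside a median of 7 (quartiles 3 and 20) over 32851 RefSeq promoter windows of the same length. The letters ACGTG, the core of the sites bound by bHLH-PAS pairs, were not found on either strand, and 19.6% of all windows hold them. ATGCAAAT, the octamer of OCT4, and ACAATG, a SOX site, were not found either, and 1.74% and 12.6% of all windows hold them. A missing match says only that these letters are absent from this window.

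Within 500 kb of Dppa3 the table lists 21 further genes, Gdf3 and Apobec1 included, of which 11 were tested. In limma 0 were called and 2 had an unadjusted p under 0.05, against 0.699% and 17.8% of all tested genes. 3 of the 11 had a higher and 8 a lower mean in the clones, with fold changes from -0.35 to 0.17 and a median of -0.11, beside a median of -0.04 over the 512 tested genes of chromosome 6. Nanog, the homeobox gene of pluripotency 81.1 kb from Dppa3, had 354, 419 and 369 RPKM in A6, B8 and C4 and 335 to 365 RPKM in EB3. It was highest in B8, where Dppa3 was lowest, with a fold change of 0.10 ± 0.10 (SE, adjusted p = 0.645), and Nanogpd, which overlaps it in the table and may share its reads, had 0.17. Slc2a3, which encodes a glucose transporter and lies 116 kb from Dppa3, had 144, 170 and 165 RPKM in A6, B8 and C4 against 214, 185 and 188 RPKM in EB3. Its groups did not overlap, and its fold change of -0.29 ± 0.10 had an adjusted p of 0.200, the lowest of these neighbours. Of the 11 tested neighbours 4, Slc2a3 among them, were lower and 1 higher without overlap, beside 26.1% of all tested genes.

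**Figure D3:**
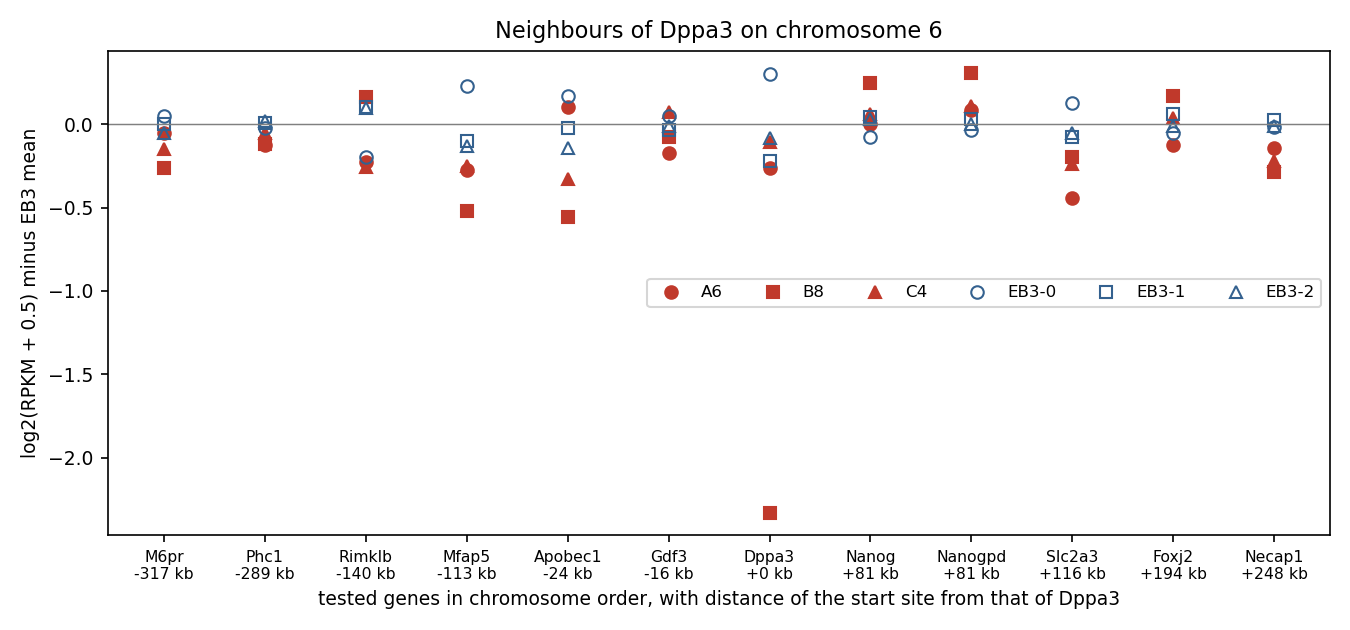
Levels of the 12 tested genes within 500 kb of Dppa3 in chromosome order, Dppa3 included (x axis, with the distance of each start site from that of Dppa3 in kb), as the difference from the EB3 mean on the log2(RPKM + 0.5) scale (y axis), with filled red symbols for the clones and open blue symbols for EB3. Dppa3 in B8 is the 1 point under -2. Gdf3 beside it lies between -0.18 and 0.08, and Apobec1 is lowest in B8, at -0.56.

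Dppa4 and Dppa2 lie in that order on the plus strand of chromosome 16, at chr16:48283848-48294405 and chr16:48310387-48319626, with start sites 26.5 kb apart. Dppa4 had 90.6, 82.0 and 94.5 RPKM in A6, B8 and C4, and 114, 103 and 98.0 RPKM in EB3-0, EB3-1 and EB3-2. Every clone was under every EB3 culture, although C4 and EB3-2 were close. The means were 89.0 ± 6.39 RPKM and 105 ± 8.29 RPKM (SD, n = 3 each), and the log2 fold change was -0.24 ± 0.10 (SE), with a 95% interval of -0.46 to -0.02. Its unadjusted p was 0.0388 and its adjusted p 0.256 in limma, and the exact permutation test gave its smallest possible p of 0.1 (2-sided). 13.4% of all tested genes did not overlap in this direction. Without B8 and EB3-0 the fold change was -0.12 (adjusted p = 0.150).

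Dppa2 had 84.2, 64.2 and 87.4 RPKM in A6, B8 and C4, and 109, 83.2 and 80.1 RPKM in EB3-0, EB3-1 and EB3-2. B8 was the lowest library and EB3-0 the highest, and A6 and C4 were above EB3-1 and EB3-2. The log2 fold change was -0.20 ± 0.16 (SE), with a 95% interval of -0.56 to 0.15, an adjusted p of 0.539 and an exact permutation p of 0.6 (2-sided). It was -0.07 without B8, and with B8 and EB3-0 both left out it turned to 0.07 (adjusted p = 0.351).

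Since the proteins act as a pair, the ratio of Dppa4 to Dppa2 was taken within each library. It was 1.08, 1.28 and 1.08 in RPKM in A6, B8 and C4, and 1.05, 1.24 and 1.22 in EB3-0, EB3-1 and EB3-2. On the log2(RPKM + 0.5) scale its mean was 0.19 ± 0.14 in the clones and 0.22 ± 0.13 in EB3 (SD, n = 3 each), a difference of -0.03 with an exact permutation p of 1 (2-sided). The ratio thus varied as much within each group as between them.

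4 further genes are listed within 500 kb of the pair and 1 of them was tested. This was Morc1, a germline gene 121 kb from Dppa2, with 25.4, 38.6 and 20.4 RPKM in A6, B8 and C4 and 37.4, 38.2 and 39.6 RPKM in EB3. A6 and C4 were lower than EB3 and B8 was not, the reverse of the order among clones for Dppa2 and Dppa4. Its fold change was -0.49 ± 0.20 (SE, adjusted p = 0.257). It was called in 1 of 16 alternatives, without B8 and EB3-0 (-0.76, adjusted p = 0.00598). That fit was chosen after seeing the data, leaves out the one clone at the level of EB3 and called 2505 of all 11595 tested genes. The nearest listed gene on that side, Gm5485, was at 0 in every library, and no gene is listed within 500 kb on the other side of Dppa4.

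Genes known to depend on DPPA2 and DPPA4 were looked at as a list of 12, with 8 of them measured and 4 tested. 0 of the 4 were called and 3 had an unadjusted p under 0.05 in limma, against 0.699% and 17.8% of all tested genes. 4 of 4 had a lower mean in the clones, against 50.9% of all tested genes. The median fold change was -1.52 beside -0.01 over all tested genes. The list's summed level was 14.4, 4.48 and 7.09 RPKM in A6, B8 and C4, and 18.5 to 26.4 RPKM in EB3. Zscan4c and Zscan4d passed the minimum level only through EB3, with means of 0.378 and 0.560 RPKM in the clones. Their lower means in the clones thus follow in part from the filter, and the counts and median above include both. Syce1 and Mael were above it in both groups, with fold changes of -1.39 and -0.61. With no minimum all 8 had a lower mean, with a median of -0.73, but the genes so added were under 1 RPKM in every library. None of the 4 fell by the adjusted test, so they stand outside the rule for named genes and are given because their levels are what the list holds. Syce1, a part of the synaptonemal complex, had 5.34, 1.99 and 3.80 RPKM in A6, B8 and C4 and 12.6, 8.54 and 9.12 RPKM in EB3. Its groups did not overlap, as for 26.1% of all tested genes, and its fold change was -1.39 ± 0.30 (SE, adjusted p = 0.0803). It was called in 2 of 16 alternatives and in 0 of the 6 that leave out 1 library. These 2 were the removal of the length trend (adjusted p = 0.0443) and, chosen after seeing the data, the fit without B8 and EB3-0 (adjusted p = 0.0113), which called 2505 of all 11595 tested genes.

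Mael, which acts in transposon silencing in the germline, had 5.83, 2.11 and 2.81 RPKM in the clones and 6.52, 4.50 and 5.03 RPKM in EB3. A6 lay within the range of EB3, and the fold change was -0.61 ± 0.31 (adjusted p = 0.353). Zscan4c, of the family that marks the 2-cell embryo and a rare state of ES cells, had 1.07, 0.0341 and 0.0311 RPKM in the clones and 2.45, 1.71 and 1.58 RPKM in EB3. Zscan4d had 1.38, 0.175 and 0.124 RPKM in the clones and 3.62, 2.42 and 2.42 RPKM in EB3. Neither gene's groups overlapped, as for 26.1% of all tested genes, and B8 and C4 were near 0. The fold changes of Zscan4c and Zscan4d were -1.64 ± 0.41 (adjusted p = 0.105) and -1.82 ± 0.41 (adjusted p = 0.0847). Each was called in 1 of 15 alternatives, the one without A6, which is the clone with the highest level of both. The Zscan4 copies are nearly identical in sequence, so the split of reads between them is uncertain.

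**Figure D4:**
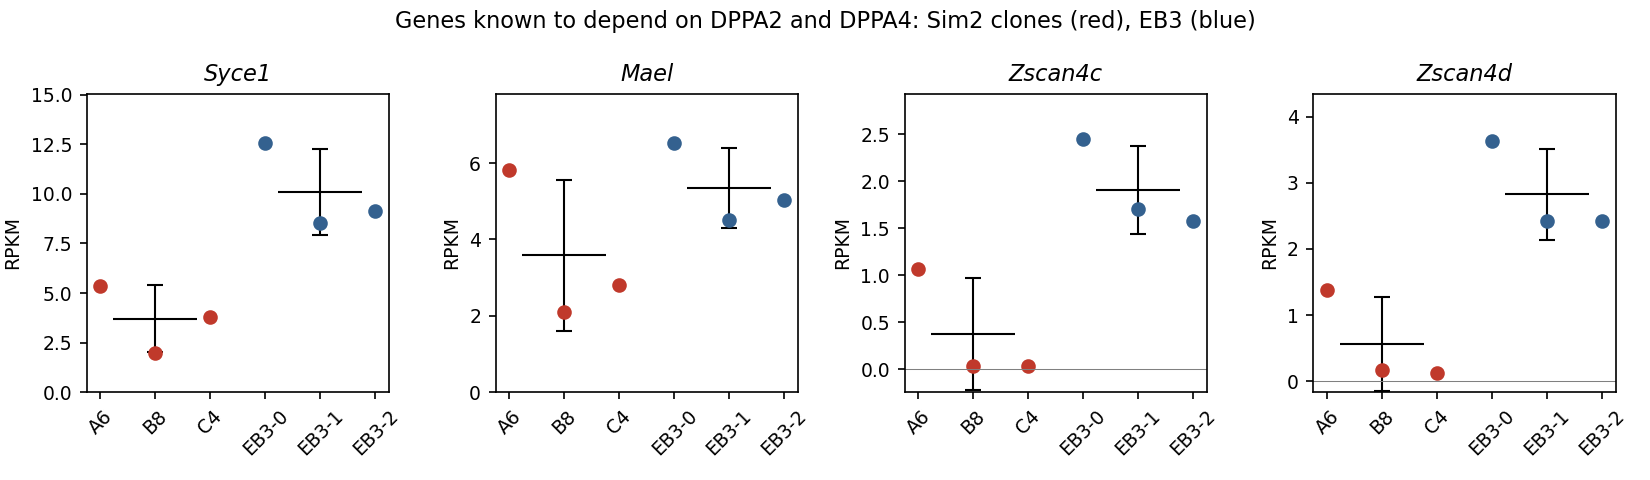
Levels in RPKM (y axes) of the 4 tested genes known to depend on DPPA2 and DPPA4, in the 3 Sim2 clones (red points) and the 3 EB3 cultures (blue points), with the group mean as a horizontal line and the SD as a vertical bar (n = 3), which reaches under 0 where the SD exceeds the mean. All red points of Syce1, Zscan4c and Zscan4d lie below the blue ones, and A6 is the highest clone for each gene.

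Dppa5a lies apart from the others, at chr9:78214861-78216006 on the minus strand. It had 2497, 3251 and 2267 RPKM in A6, B8 and C4, and 3155, 2141 and 2099 RPKM in EB3-0, EB3-1 and EB3-2. B8 and EB3-0 were high and the other 4 libraries low, and all clones were above EB3-1 and EB3-2. The means were 2672 ± 515 and 2465 ± 598 RPKM (SD, n = 3 each), and the log2 fold change was 0.13 ± 0.21 (SE), with a 95% interval of -0.36 to 0.61. The adjusted p was 0.799 and the exact permutation p 0.5 (2-sided). The fold change was -0.02 without B8, 0.32 (adjusted p = 0.220) without EB3-0 and 0.17 (adjusted p = 0.0625) without both, so its size and sign depend on these libraries. With 639 bases its cDNA is the shortest of the 6, and with each library's trend over cDNA length removed the fold change was 0.25. On the log2 scale EB3-0 was then at 10.66, near A6 at 10.61, and B8 was at 11.12.

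**Figure D5:**
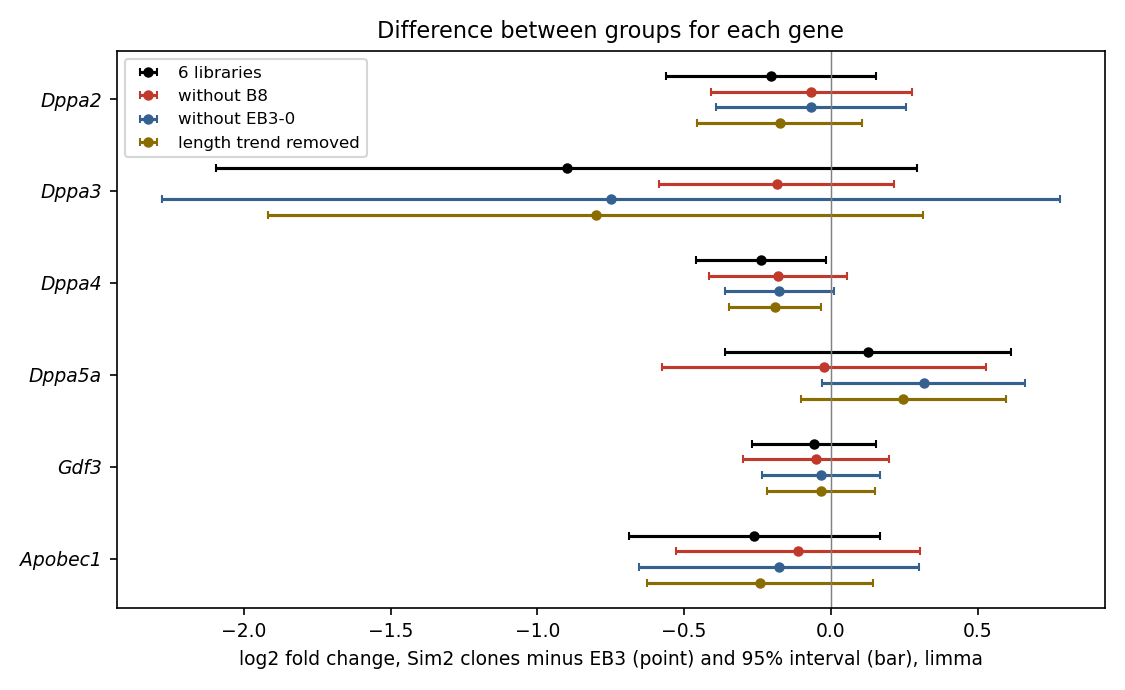
Log2 fold change of each gene, clones minus EB3 (x axis; point), with its 95% interval from limma (bar), for all 6 libraries (black), without B8 (red), without EB3-0 (blue) and with the trend over cDNA length removed (ochre). The interval of Dppa3 narrows without B8, from -0.90 to -0.19 at its centre, and the black interval of Dppa4 ends just under 0.

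Within 500 kb of Dppa5a 19 genes are listed and 10 were tested, with 0 called and a median fold change of -0.04. Over all tested genes 0.699% were called and the median was -0.01. Ooep, a gene of the same KH-domain family that is known from the oocyte, starts 10.4 kb away and had 127, 102 and 113 RPKM in the clones against 154, 103 and 99.5 RPKM in EB3. Its groups overlapped, and its fold change was -0.04 ± 0.17 (SE, adjusted p = 0.939). The nearest listed gene on the other side, the glutathione transferase Gsta2, was under 1 RPKM in every library and was not tested. Of the wider list of DPPA5A relatives and the maternal complex, 3 of 8 genes in the table were tested, 0 were called and the median was 0.00. The only other Dppa-named gene in the table, Dppa1, was at 0 in every library.

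The pathways around the other members held few calls, where 0.699% of all tested genes were called. Of 16 genes of the GDF3 and NODAL pathway, 13 were tested, 1 was called higher and 0 lower, 9 had a higher mean, and the median was 0.09. The called gene was Foxh1, the DNA-binding partner of SMAD2 in NODAL signalling, with 100, 105 and 95.7 RPKM in the clones and 56.8, 62.0 and 63.0 RPKM in EB3. It rose by 0.72 ± 0.08 on the log2 scale (SE, adjusted p = 0.0211), but with any 1 library left out it was called in 1 of 6 fits, with adjusted p up to 0.104. Foxh1 lies on chromosome 15, where the median over 470 tested genes was 0.21. Of 16 BMP pathway genes 11 were tested, with 0 called, 0 at an unadjusted p under 0.05 and a median of 0.10.

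Of 11 genes for the partners of DPPA3 and for DNA methylation, 9 were tested, 0 were called, 2 had an unadjusted p under 0.05 and the median was 0.04. Of 10 APOBEC family genes and editing cofactors, 6 were tested, 0 were called, 3 had an unadjusted p under 0.05 and the median was 0.12. Over all tested genes 0.699% were called and 17.8% had an unadjusted p under 0.05 in limma. Of 9 primordial germ cell markers tested, 0 were called higher and 1 lower, with a median of -0.21. The called marker was Dazl, an RNA-binding protein of germ cells, at 1.00, 1.00 and 1.02 RPKM in the clones and 2.19, 2.66 and 3.22 RPKM in EB3. It fell by 1.07 on the log2(RPKM + 0.5) scale (SE 0.17, adjusted p = 0.0418), and with any 1 library left out it was called in 1 of 6 fits. 3 of the 9 had an unadjusted p under 0.05, and these were Dazl, Stk31 and Kit. Stk31 was lower and Kit higher in the clones without overlap (adjusted p = 0.0904 and 0.111 in limma), where 26.1% of all tested genes did not overlap. Stk31 had 0.288 to 0.738 RPKM in the clones and 1.25 to 1.73 RPKM in EB3, so it passed the minimum level only through EB3. The summed level of the markers was 414 to 507 RPKM in the clones and 396 to 526 RPKM in EB3, most of it Ifitm3 at 337 to 458 RPKM.

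Markers of other cell types were few among the tested genes, and 0 of them were called, where 0.699% of all tested genes were. In limma 2 of 2 primitive endoderm, 1 of 1 mesoderm and 2 of 5 neural markers tested had an unadjusted p under 0.05. The counts were 0 of 1 for trophoblast and 0 of 2 for fibroblast, against 17.8% of all tested genes. Apart from primitive endoderm, with 2 of 8 tested and a median of 0.88, the summed levels in the clones and in EB3 were 2.83 to 5.08 and 2.21 to 2.39 RPKM for 6 trophoblast markers and 2.73 to 3.24 and 2.08 to 2.71 RPKM for 5 mesoderm markers. They were 89.4 to 111 and 130 to 147 RPKM for 5 neural markers, of which 3 had a higher and 2 a lower mean in the clones. Most of that sum was Tubb3, which was under 100 RPKM in every clone and had 113 to 133 RPKM in EB3, while Nes had 8.30 to 9.15 and 5.75 to 6.03 RPKM. For 6 fibroblast markers the sums were 15.3 to 17.9 and 13.4 to 17.4 RPKM.

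The genes whose levels over the 6 libraries were most like those of each member were taken by the root mean square (RMS) difference of centred log2(RPKM + 0.5), as a description. For Dppa3 they were Scarna13 at 0.20, Fabp5 at 0.24 and 1700022P22Rik at 0.27, where the RMS of Dppa3 about its own mean was 0.86. Fabp5, a fatty acid binding protein, had under 1 RPKM in B8 and 2.66 to 5.46 RPKM in the other libraries. The nearest genes were Ormdl2, 2700029M09Rik and Adh5 for Dppa4, and Trappc1, Pla2g1b and Mrpl15 for Dppa2. They were Gm2a, Cdc42ep5 and Rpp25 for Dppa5a, Tbpl1, Cdan1 and Adat3 for Gdf3, and Gm16378, Upk3b and Mri1 for Apobec1.

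In the study's list of genes assigned to SIM2-bound regions, Dppa3, Dppa4, Gdf3, Apobec1, Nanog and Morc1 are named, and Dppa2, Dppa5a, Slc2a3 and Ooep are not. The study assigned a region between genes or in an intron to the closest gene on either side, so neighbouring genes can share a region. The share of all genes on that list was not taken, so the names say nothing about enrichment. The measured levels carry 1 further limit. Against the mm9 genome, a transcript of each gene was searched for matches elsewhere of at least 200 bases at 90% identity or more, and matches within 1000 bases of each other were taken as 1 place. Dppa3 matched 2 places, the longest match of 820 bases at 97.7% on the X chromosome. Dppa4 matched 2 places, the longest match of 1040 bases at 98.1% on chromosome 2. Dppa2 matched 5 places, among them 1179 bases at 99.0% on chromosome 19. Dppa5a matched 7 places, from 612 bases at 93.6% on chromosome 16 to 245 bases at 100% on chromosome 9. Gdf3 and Apobec1 matched 0. The treatment of reads that map equally well to more than 1 place is not given in the sources used here, so the levels of the 4 Dppa genes are less certain than those of Gdf3 and Apobec1.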

How the data were processed

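The authors mapped paired mRNA reads to mm9 with BWA at default settings, used a pipeline of their own for the coverage of RefSeq exons and deposited it as RPKM per library. Versions, strand use and the treatment of multiply mapped reads are not given in the sources used here. No column was left unused (0), and positions are 1-based. RPKM times cDNA length gave whole multiples of 1 step in each library (within 0.01), which yielded the read totals. The values are RPKM, so the main test used no count model, and limma-voom was run on the recovered reads as an alternative. A mean of 1 RPKM or more was needed for a test (11595 genes, 51.3%), made with limma 3.58.1 (R 4.3.3, lmFit and eBayes with trend) on log2(RPKM + 0.5), 3 libraries against 3, with no covariate and Benjamini-Hochberg adjustment over all tested genes. Called means an adjusted p under 0.05. Fold changes on this scale understate those of low genes. The fit was tested on simulated data. Single genes also had a 2-sided exact permutation test over libraries. The Poisson intervals were made with scipy 1.17.1. Copies were searched with blastn 2.17.0. The promoter is from RefSeq.

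The members and lists were chosen with earlier results of these data known. Genes were named by a rule: the 6 members, the listed genes from Apobec1 to Slc2a3 and beside the other members, called genes of each list (at most 5), the 3 nearest patterns of each member, and Sim2. Some genes outside it are said to be so where they are named. Dppa1, Morc1 and the cell type markers that are named but were not called are outside it too. Alternatives were other pseudocounts (0.1 and 1), other minimum levels (none and 5), quantile normalization, median centring, limma-voom, removal of the length trend, EB3-1 and EB3-2 averaged, and each library left out.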

Additional observations from a re-analysis of the deposited data

How the results depend on the processing

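0 of the 6 genes was called under any of 16 alternatives each. Over these the log2 fold change ran from -1.30 to -0.03 for Dppa3 (adjusted p 0.327 to 0.806), -0.29 to -0.12 for Dppa4 (0.150 to 0.474), -0.29 to 0.07 for Dppa2 (0.351 to 0.895), -0.44 to -0.03 for Apobec1 (0.290 to 0.905), -0.13 to -0.00 for Gdf3 (0.616 to 0.999) and -0.02 to 0.32 for Dppa5a (0.0625 to 1), all in limma. The sign turned for Dppa2 with B8 and EB3-0 left out (0.071), an alternative chosen after seeing the data, and for Dppa5a without B8 (-0.024, in a range of -0.024 to 0.32 over the libraries left out). The cause was not tested. The number of genes called among all tested was 81 and became 23 with no minimum level, 289 with the length trend removed, 6 with EB3-1 and EB3-2 averaged and 2505 with B8 and EB3-0 left out. With 1 library left out it ran from 6 (EB3-1 or EB3-2) to 694 (EB3-0), with 20 without A6, 17 without B8 and 7 without C4. No paired analysis was possible because the clone names and the culture numbers share no replicate number. If both mates of a pair were counted, as more genes with 2 reads than with 1 may mean, fewer fragments than reads stand behind Dppa3 in B8.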

Other observations

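Some list genes outside the rule for named genes are given here as values, chosen after their values were seen. Id1 and Id3, targets of BMP signalling that encode inhibitors of bHLH factors, were lowest in B8, the clone with the lowest Dppa3. Id2, of the same family, had 12.2, 23.6 and 17.7 RPKM in A6, B8 and C4 and 14.6 to 24.4 RPKM in EB3, so B8 was its highest clone. Id1 had 128.5, 54.6 and 103.6 RPKM in A6, B8 and C4 and 103.9 to 117.9 RPKM in EB3, and its fold change was -0.29 ± 0.27 (SE, adjusted p = 0.625). Id3 had 37.5, 17.7 and 26.9 RPKM in the clones and 31.8 to 45.7 RPKM in EB3, with a fold change of -0.50 ± 0.25 (adjusted p = 0.350). Dnmt3l, the cofactor of the de novo DNA methyltransferases, had 236, 190 and 257 RPKM in A6, B8 and C4 and 334, 327 and 342 RPKM in EB3-0, EB3-1 and EB3-2. Its groups did not overlap, as for 26.1% of all tested genes, and its fold change of -0.56 ± 0.12 (SE) had an adjusted p of 0.0818 in limma. Apobec2, a relative of Apobec1 known from muscle, had 18.3, 24.7 and 11.9 RPKM in the clones and 7.88, 5.59 and 4.81 RPKM in EB3. The clones were all above EB3, unlike those of Apobec1, where 26.1% of all tested genes did not overlap in either direction. The fold change was 1.48 ± 0.27 (SE, adjusted p = 0.0610). Whether the 2 genes differ in their response was not tested.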
